A study of Homo sapiens with 8 samples.

Results

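The trefoil peptides TFF1, TFF2 and TFF3 were measured together with 7 genes of luminal secretory epithelium, AGR2, SPDEF, MUC1, FOXA1, GATA3, ESR1 and XBP1. The 10 genes were chosen by name with the knockdown and control intensities of these arrays known, where TFF1 stood among the largest rises. Each gene matched 1 of 22011 transcript clusters (the gene-level features of the array), and together they matched 112 of 287329 probesets (the exon-level features), counting features annotated to 1 member gene alone and keeping dim ones. Knockdown arrays came from MDA-MB-231 cells made to express, from a stable lentiviral insert, an shRNA against the integrin α3 subunit, and control arrays from the same cell line with a control shRNA delivered in the same way. Both were kept under the same culture conditions in DMEM with serum, and each had 2 arrays described as biological replicates. MDA-MB-231 is an established human breast cancer line of the triple-negative, mesenchymal-like kind. The labels name no further α3 hairpin and no rescue, so effects of α3 loss, of the hairpin and of the 2 transduced populations cannot be told apart. With 2 arrays a group, the number of arrays limits the precision of every value.

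Trefoil peptides are small secreted proteins held in a compact fold by disulphide bonds. They are released with mucins by gastric, intestinal and other mucosal epithelia, where they aid repair of the surface. TFF1 was first known in breast cancer as pS2, a gene induced by estrogen through ESR1, the estrogen receptor. FOXA1 and GATA3 act with ESR1 at the enhancers of luminal breast cells, SPDEF is an ETS-family factor of goblet and luminal secretory cells, and XBP1 drives the expansion of the endoplasmic reticulum in secretory cells. AGR2 is a disulphide isomerase of the endoplasmic reticulum needed for mucin assembly, and MUC1 is a membrane mucin.

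RefSeq promoter windows (GRCh38.p14) were matched for 7 of the 10 members. The windows missing from the table are those of TFF1, TFF2 and TFF3. The 250 bases before the start are printed for SPDEF, the member with a window that fell in knockdown, and for the secretory products AGR2 and MUC1, whose arrays overlapped between groups. Capitals mark any letters of the 7 motifs searched on either strand. The SPDEF window is chr6:34556330-34556579, the AGR2 window chr7:16805000-16805249 and the MUC1 window chr1:155192916-155193165, all on the minus strand.
SPDEF: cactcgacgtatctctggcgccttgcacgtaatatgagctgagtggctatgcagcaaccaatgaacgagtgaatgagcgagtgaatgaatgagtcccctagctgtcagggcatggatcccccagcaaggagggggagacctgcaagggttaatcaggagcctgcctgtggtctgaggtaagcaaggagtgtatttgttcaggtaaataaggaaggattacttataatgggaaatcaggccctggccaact
AGR2: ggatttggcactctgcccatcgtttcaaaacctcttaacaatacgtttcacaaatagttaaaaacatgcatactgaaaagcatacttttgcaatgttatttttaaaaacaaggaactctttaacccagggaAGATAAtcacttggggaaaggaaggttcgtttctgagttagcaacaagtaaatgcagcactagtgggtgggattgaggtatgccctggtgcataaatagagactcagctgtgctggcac
MUC1: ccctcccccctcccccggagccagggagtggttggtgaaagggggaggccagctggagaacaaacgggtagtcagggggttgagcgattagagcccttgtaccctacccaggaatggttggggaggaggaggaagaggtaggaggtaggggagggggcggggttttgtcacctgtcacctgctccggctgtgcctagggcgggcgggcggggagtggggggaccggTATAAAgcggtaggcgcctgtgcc
The AGR2 window holds the GATA letters AGATAA at positions -119 to -114 before the start, and the MUC1 window holds the TATA box letters TATAAA at positions -24 to -19. None of the searched motifs was found in the SPDEF window. Among 35116 RefSeq windows, AGATAA was in 9.17% and TATAAA in 10.7%. The estrogen response element GGTCANNNTGACC was in 0.0399% of all windows, the shorter site AGGTCA, which can overlap it, in 12.1%, the forkhead letters TGTTTAC in 2.98% and the XBP1 letters TGACGTG in 1.68%. None of these 4 was found in the 19 windows of the 7 matched members. The ETS letters CCGGAA were in 14.5% of all windows and in windows of ESR1 and GATA3. A match is a match of letters in a short window and does not show binding.

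Values are linear PLIER intensities, and differences are knockdown minus control on log2(intensity + 16), with the standard error (SE) of the limma fit over all tested clusters. A cluster was tested if its mean over the 4 arrays lay above 108, the limit of the lower 40%, and was called at a Benjamini-Hochberg adjusted p under 0.05. Since TFF1 and its companions were chosen with this contrast known, calls on members and on the related lists are given as a description and not as a test of them. The hairpin's target ITGA3 measured 619 and 644 in knockdown arrays, against 3480 and 3529 in control arrays. Array medians were 168 and 171 in knockdown and 177 and 186 in controls. VIM, the mesenchymal intermediate filament gene, averaged 4441 ± 132 in knockdown and 5001 ± 339 in control arrays (SD, n = 2 each) and was not called. Of 13206 tested clusters, 793 (6.0%) were called higher and 2033 (15.4%) lower. Higher clusters were 28.1% of all calls, 44.3% after quantile normalization and 49.4% after each array was centred on its median.

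Calls on the members are described by role. All 3 trefoil peptides were higher in knockdown, 1 transcription factor (SPDEF) was lower, and the remaining 6 members were either not called or, for ESR1, too dim to be tested. That is 3 of the 9 tested members higher, where 6.0% of all tested clusters were, and 1 lower, where 15.4% were. Nothing is read from these shares, because the contrast helped to choose the genes. The median difference over all 10 members, dim ESR1 included, was 0.06, against -0.06 over all tested clusters and -0.04 over all clusters. Knockdown arrays lay above both control arrays for 4 members and below both for 3, where 19.1% and 33.0% of all clusters did, dim ones included.

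**Figure D1:**
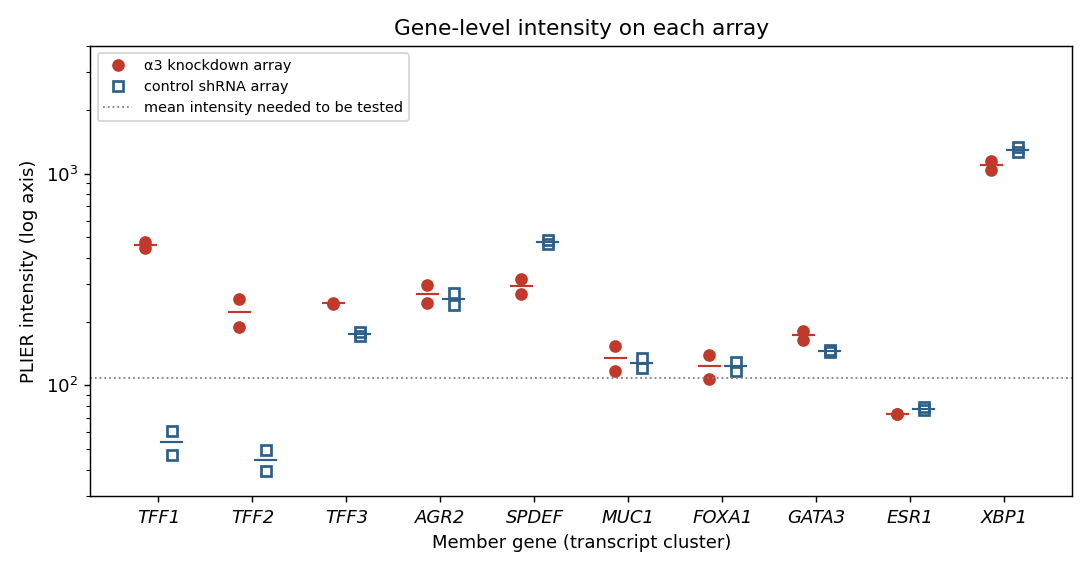
PLIER intensity (log axis) of each member's transcript cluster on each array, with α3 knockdown arrays as filled circles left of control shRNA arrays as open squares, group means as short bars, and the dotted line at the mean intensity of 108 needed to be tested. The TFF1, TFF2 and TFF3 knockdown points lie above the control points, the SPDEF knockdown points lie below them, and ESR1 lies under the line on all 4 arrays.

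TFF1 (transcript cluster 3933559) measured 447 and 475 in knockdown arrays, against 61.2 and 47.2 in control arrays. The knockdown mean was 461 ± 20.03 and the control mean 54.2 ± 9.92 (SD, n = 2 each), a ratio of 8.51. The difference was 2.77 ± 0.14 (SE), and 3 of 13206 tested clusters, TFF1 included, lay at or above it. The groups were far apart compared with the spread between replicates. In bulk RNA, a strong rise in a few cells and a weaker rise in all of them cannot be told apart.

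TFF2 (transcript cluster 3933550), the peptide with a pair of trefoil domains known mainly from the stomach, measured 189 and 256 in knockdown arrays, against 49.5 and 39.4 in control arrays. Its knockdown mean was 223 ± 47.5 and its control mean 44.4 ± 7.15 (SD, n = 2 each), a ratio of 5.02 and a difference of 1.97 ± 0.18 (SE). The lowest knockdown array lay well above the highest control array, and 10 tested clusters were at or above this difference. TFF1 and TFF2 were under 108 on both control arrays, so they were tested through their knockdown arrays. No detection call was used here, so signal and background in their control values cannot be told apart.

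TFF3 (transcript cluster 3933536), the intestinal trefoil peptide that is also made by luminal breast cells, measured 246 and 244 in knockdown arrays, against 172 and 178 in control arrays. The difference was 0.45 ± 0.10 (SE), a ratio of 1.40, and 645 tested clusters lay at or above it. The groups did not overlap, but the size was small beside those of TFF1 and TFF2. TFF3 was no longer called without control replicate 1 (difference 0.42), knockdown replicate 1 (0.44) or knockdown replicate 2 (0.45), with the lone array of a group then assumed to vary like the other group.

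**Figure D2:**
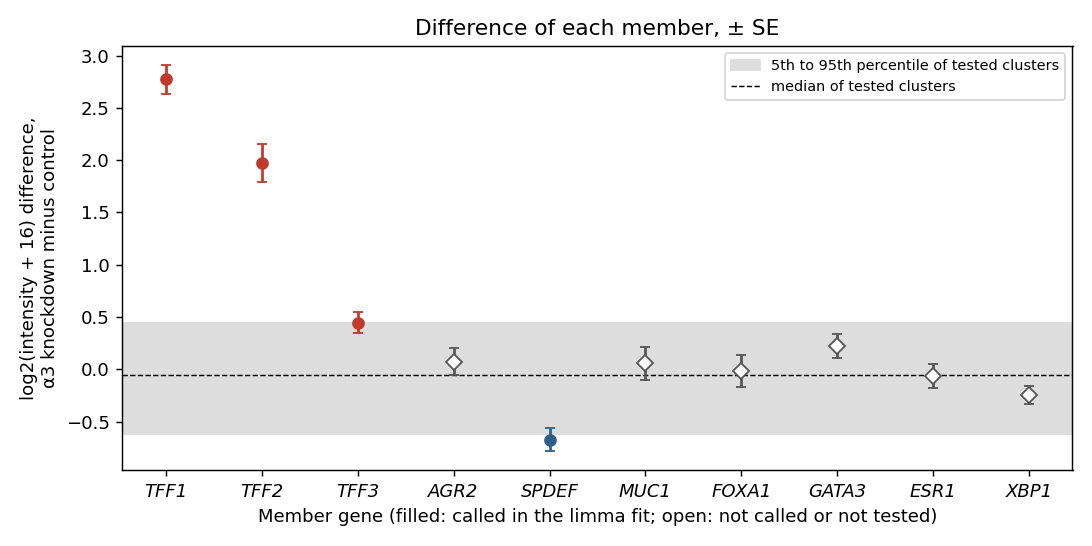
Difference in log2(intensity + 16), α3 knockdown minus control, for each member with its SE, against the range from the 5th to the 95th percentile of tested clusters (grey, -0.62 to 0.44) and their median (dashed, -0.06). TFF1 at 2.77 and TFF2 at 1.97 lie far above the grey range, TFF3 at 0.45 sits at its upper edge, SPDEF at -0.67 lies just below it, and the other 6 members lie inside.

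SPDEF (transcript cluster 2951191) measured 269 and 319 in knockdown arrays, against 488 and 466 in control arrays. Its knockdown mean was 294 ± 35.1 and its control mean 477 ± 15.7 (SD, n = 2 each). SPDEF fell by 0.67 ± 0.11 (SE) on the log2 scale, opposite in direction to the trefoil peptides. It was no longer called without knockdown replicate 1 (difference -0.56).

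Of the factors that act with the estrogen receptor, ESR1 (transcript cluster 2931763) itself stood at 73.6 and 73.6 in knockdown arrays, against 76.3 and 78.9 in control arrays, under the limit for testing on all 4 arrays. Its difference, in the fit without the filter, was -0.06 ± 0.11 (SE). FOXA1 measured 139 and 107 in knockdown arrays and 129 and 117 in control arrays, with overlapping groups and a difference of -0.01 ± 0.15 (SE). GATA3 measured 164 and 182 in knockdown arrays, against 144 and 147 in control arrays. Its groups did not overlap, yet the difference of 0.22 ± 0.11 (SE) was not called.

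XBP1 was bright on all 4 arrays, at 1036 and 1148 in knockdown and 1263 and 1328 in controls. Its knockdown arrays lay below both control arrays, but the difference of -0.24 ± 0.09 (SE) was not called. The secretory products AGR2 and MUC1 showed overlapping groups. AGR2 measured 245 and 296 in knockdown arrays and 239 and 274 in control arrays (difference 0.07 ± 0.13, SE). MUC1 measured 153 and 117 in knockdown arrays and 135 and 121 in control arrays (difference 0.06 ± 0.15, SE). At 2 arrays a group, these errors leave small differences of AGR2 and MUC1 undetectable.

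The exon-level summaries come from the same 4 arrays and give the difference at each probeset of a gene. Probesets were ordered by identifier and were not placed on exons. Of the 112 member probesets, 66 were bright enough to be tested, 6 were called higher and 2 lower, where 1.33% and 3.33% of all 172397 tested probesets were. All 6 higher probesets belonged to TFF1 and TFF2 and both lower ones to SPDEF. These 6 were under the exon-level limit of 99.4 on both control arrays, so they were tested through their knockdown arrays. Nothing is read from the share of member probesets called. Without 1 array, 5 to 6 were higher, while 0 were lower without control replicate 1 and 1 was lower without control replicate 2, knockdown replicate 1 or knockdown replicate 2. Without the filter on dim probesets, 0 were called in either direction.

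TFF1 had 4 probesets, of which 3 were higher, with 267 to 572 in knockdown arrays and 27.6 to 76.3 in control arrays. The differences of the leading pair, probesets 3933560 and 3933562, were 2.86 ± 0.25 and 2.81 ± 0.22 (SE). The remaining TFF1 probeset, 3933564, read 166 and 208 in knockdown arrays and 175 and 95.6 in control arrays, so its groups overlapped. TFF2 had the same layout. There, 3 of its 4 probesets were higher, with 121 to 341 in knockdown arrays and 36.2 to 80.01 in control arrays, and differences of 2.25 ± 0.29 for 3933551 and 2.04 ± 0.33 (SE) for 3933553. The remaining TFF2 probeset, 3933557, read 161 and 177 in knockdown arrays and 175 and 136 in control arrays.

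TFF3 was read by 6 probesets, and 5 of them had a positive difference. Of its 4 tested probesets 0 were called by limma, and 2 had an unadjusted p under 0.05, as did 36386 of all 172397 tested probesets. Among the tested probesets, the largest difference was 1.13 ± 0.40 (SE) for 3933538, at 99.6 and 211 in knockdown arrays against 43.5 and 76.3 in control arrays. Next was 0.63 ± 0.17 (SE) for 3933545, at 781 and 882 in knockdown arrays against 475 and 592 in control arrays. The dim probesets 3933542 and 3933546, in the fit without the filter, differed by 1.04 ± 0.28 and -0.07 ± 0.24 (SE). At 3933538 and 3933545, both knockdown arrays lay above both control arrays. The share of all probesets that did so is not given here, so nothing is read from this separation.

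SPDEF was read by 10 probesets, and in 9 of them both knockdown arrays lay below both control arrays. Among all probesets, dim ones included, 27.5% did so. The 2 called lower were 2951196, at 353 and 382 in knockdown arrays against 845 and 723 in control arrays (difference -1.06 ± 0.17, SE), and 2951199, at 294 and 333 in knockdown arrays against 621 and 535 in control arrays (-0.85 ± 0.18, SE). The exception was 2951200, the brightest probeset of SPDEF, at 1619 and 1368 in knockdown arrays and 1696 and 1144 in control arrays.

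**Figure D3:**
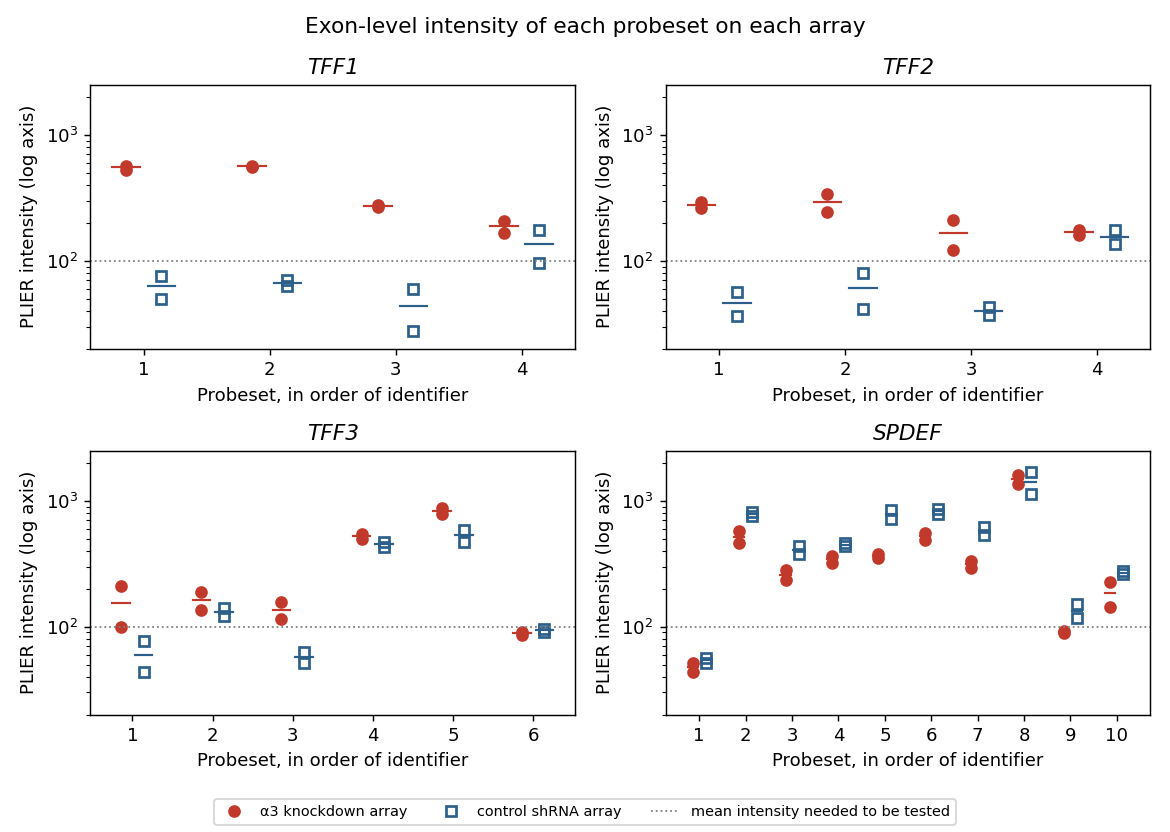
PLIER intensity (log axis) of every probeset of TFF1, TFF2, TFF3 and SPDEF in order of probeset identifier, with α3 knockdown arrays as filled circles left of control shRNA arrays as open squares, bars at group means and the exon-level limit for testing dotted at 99.4. In TFF1 and TFF2 the first 3 probesets separate the groups and the fourth does not, while 9 of 10 SPDEF probesets are lower in knockdown.

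The remaining 7 members, TFF3 included, had 49 tested probesets, of which 0 were called by limma, 5 were higher and 2 lower at an unadjusted p under 0.05. Over all 172397 tested probesets, 36386 had an unadjusted limma p under 0.05 in either direction, so nothing is read from these counts. In XBP1 the difference was negative at all 10 probesets, from -0.42 to -0.01, and its largest were at 3956607 (-0.42 ± 0.20, SE) and 3956600 (-0.38 ± 0.13, SE). GATA3 had its largest differences at 3234283 (1.14 ± 0.39, SE) and 3234303 (0.85 ± 0.27, SE). The first of these varied widely among replicates, with 982 and 736 in knockdown arrays and 630 and 224 in control arrays. ESR1 probeset 2931781 read 837 on knockdown replicate 1, against 316 on knockdown replicate 2 and 322 and 326 in control arrays, so its difference of 0.65 ± 0.37 (SE) came from 1 array. Among tested ESR1 probesets, 2931807 followed at 0.40 ± 0.32 (SE).

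Of 25 ESR1 probesets, 7 were bright enough to be tested. MUC1 had 11 of 22 tested. Among those 11, the largest differences were 0.49 ± 0.34 (SE) at 2437149 and 0.45 ± 0.28 (SE) at 2437148, and some dim probesets differed by more. In AGR2, probesets moved apart, with 0.51 ± 0.24 (SE) at 3039809 and -0.39 ± 0.19 (SE) at 3039814. Among tested FOXA1 probesets, the largest differences were -0.26 ± 0.32 (SE) at 3561731 and -0.21 ± 0.25 (SE) at 3561730, and some dim ones were larger. None of these was called.

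The 3 trefoil genes lie side by side on chromosome 21, within 54.9 kb of GRCh38.p14 (chr21:42311667-42366535), in the order TFF3, TFF2, TFF1. The build is that of the RefSeq gene table, used here for position and order. Along this cluster the difference was 0.45 for TFF3, 1.97 for TFF2 and 2.77 for TFF1. The neighbour beyond TFF1 was TMPRSS3, a membrane serine protease, which measured 279 and 319 in knockdown arrays, against 191 and 205 in control arrays, and was called higher (0.56 ± 0.11, SE). The neighbour beyond TFF3 was ABCG1, a cholesterol exporter, at 138 and 155 in knockdown arrays and 132 and 135 in control arrays (0.12 ± 0.12, SE), which was not called.

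Of the 12 protein-coding genes within 6 places of the cluster on either side, 9 were tested, 1 was higher (TMPRSS3), 1 was lower (ZBTB21, a zinc finger factor) and 7 were not called. Over all tested clusters, 6.0% were called higher and 15.4% lower, so nothing about the locus is read from these counts. ZBTB21 measured 306 and 262 in knockdown arrays, against 409 and 457 in control arrays (-0.58 ± 0.11, SE). The differences of RIPK4, PRDM15, C2CD2, SLC37A1 and WDR4 were -0.40, -0.15, -0.22, -0.25 and -0.16, and that of UBASH3A was 0.09. The median over the 12 neighbours, dim ones included, was -0.15, against -0.06 over all tested clusters and -0.04 over all clusters.

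**Figure D4:**
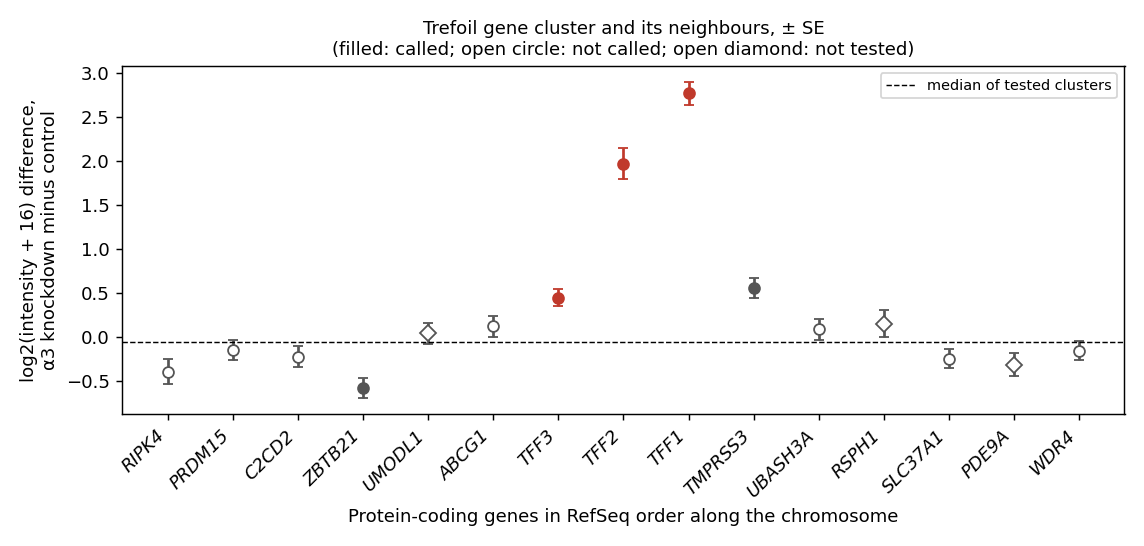
Difference in log2(intensity + 16), α3 knockdown minus control, with its SE, for the trefoil genes (red) and their 12 protein-coding neighbours (grey) in RefSeq order along chromosome 21, spaced by place and not by distance. The values of TFF1 and TFF2 stand apart, TFF3 and TMPRSS3 flank them at 0.45 and 0.56, and the other neighbours lie between -0.58 and 0.15.

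Tested clusters with 1 symbol, outside the members, were ranked by the distance of their centred pattern over the 4 arrays to TFF1. Members and clusters too dim to be tested, such as CDH1, were left out of this search. The nearest were those of TNFSF18, SCG2, SLC1A3, OAS1 and EEF1A2. Their Euclidean distances were 0.31, 0.34, 0.48, 0.99 and 1.06 on the log2 scale. SCG2 was under 108 on both control arrays, so it was tested through its knockdown arrays. With 4 arrays in 2 groups, this likeness is mostly a likeness in the size of the group difference. EEF1A2 is close in sequence to EEF1A1, so its value is uncertain.

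Other genes of these programs were counted in 5 lists. Each count stands beside 6.0% of all tested clusters called higher and 15.4% called lower. At an unadjusted limma p under 0.05 there were 4738 of 13206 tested clusters in either direction. Of 20 estrogen receptor target genes, 16 had a cluster and 10 were tested, of which 0 rose, 1 fell and 9 were not called by limma, against 0 higher and 3 lower at an unadjusted p under 0.05. Their median difference was -0.15. MYB, a transcription factor, fell to 88.8 and 95.3 in knockdown arrays, against 132 and 141 in control arrays (-0.50). This call was lost after quantile normalization, after centring and without the filter. Both MYB knockdown arrays were under 108, so MYB was tested through its control arrays. The coregulator NRIP1 (-0.34) and the retinoic acid receptor gene RARA (-0.27) were not called. The classical targets PGR and GREB1 were too dim to be tested, at 18.5 ± 4.89 and 55.2 ± 4.75 in knockdown and 19.9 ± 0.35 and 51.5 ± 8.42 in control arrays (SD, n = 2 each).

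Genes of luminal and epithelial identity moved in both directions. Of 22 listed, 20 had a cluster and 13 were tested, with 2 higher, 4 lower and 7 not called, and a median of -0.04. CLDN4, a tight junction claudin, rose to 837 and 765 in knockdown arrays, against 280 and 342 in control arrays (1.33), and KRT18, a simple-epithelium keratin, also rose (0.32), a call lost without the filter. TFAP2C, a luminal transcription factor, fell to 981 and 990 in knockdown arrays, against 1794 and 1838 in control arrays (-0.87). The simple-epithelium keratin KRT19 (-0.76), the claudin CLDN7 (-0.75) and the receptor ERBB2 (-0.45) fell as well. CDH1, the E-cadherin gene, had a mean under the limit for testing, with 177 and 168 in knockdown arrays, against 25.4 and 28.8 in control arrays, and was called higher in the fit without the filter.

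Mucins and other mucosal secretions were mostly dim. Of 22 listed, 14 had a cluster, 4 were tested, 1 rose, 0 fell and 3 were not called by limma, with the same counts at an unadjusted p under 0.05 and a median of -0.03. SLPI, a secreted protease inhibitor of mucosa, rose to 252 and 302 in knockdown arrays, against 127 and 118 in control arrays (1.08). CREB3L1 (-0.13) and PIGR (-0.08) were not called, and AGR3, the paralog of AGR2, was dim at 9.75 ± 2.24 in knockdown and 11.3 ± 2.24 in control arrays (SD, n = 2 each). Of 10 reported partners and receptors of trefoil peptides, 6 had a cluster and 3 were tested, of which 2 rose and 1 fell, with a median of 0.66. CXCR4, a reported TFF2 receptor, rose to 457 and 553 in knockdown arrays, against 202 and 223 in control arrays (1.18), EGFR rose (0.66), and GKN2, a gastric partner of TFF1, fell (-0.58).

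Genes of protein folding in the endoplasmic reticulum, many of them XBP1 targets, included falls and no rise. Of 21 listed, all 18 with a cluster were tested, 0 rose, 6 fell and 12 were not called by limma, against 0 higher and 9 lower at an unadjusted p under 0.05. Over all tested clusters, 15.4% were called lower, and 4738 of 13206 had an unadjusted p under 0.05 in either direction. Their median was -0.21. The disulphide isomerase PDIA4 fell to 554 and 535 in knockdown arrays, against 937 and 1003 in control arrays (-0.81). CRELD2 (-0.60) and HERPUD1 (-0.42), both induced by endoplasmic reticulum stress, fell as well. The number of falls was 4 after quantile normalization, 4 after centring and 4 without the filter.

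**Figure D5:**
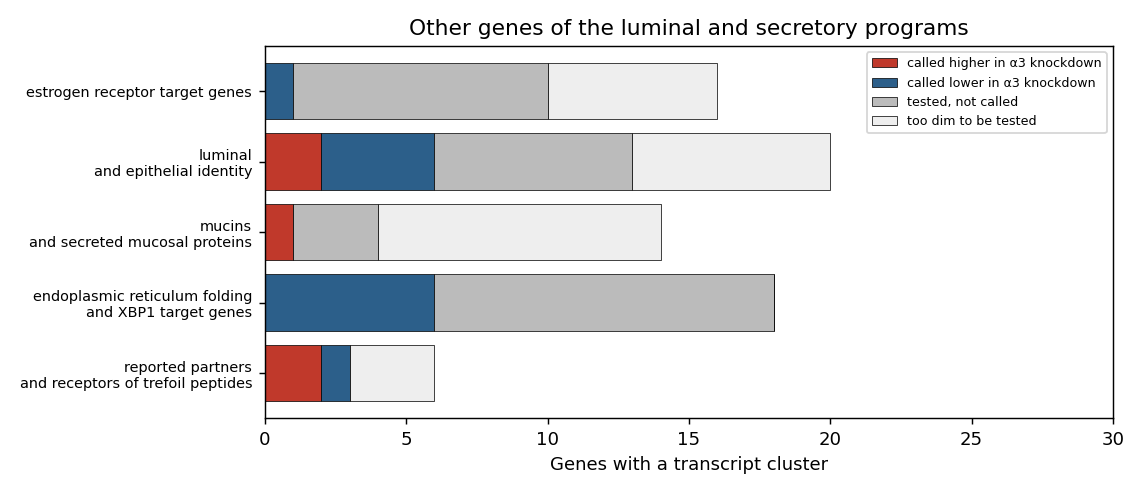
Number of genes with a transcript cluster in each of 5 lists (horizontal axis), split into those called higher in α3 knockdown, called lower, tested and not called, and too dim to be tested. Among 18 folding genes 6 are lower and 0 higher, and most mucins and mucosal genes (10 of 14) are too dim.

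Markers of other cell types and of the cell line were read on the same arrays, and their part in the results above was not tested. Of 7 fibroblast markers with a cluster, 6 were dim, and the list's summed intensity was 344 to 350 in knockdown arrays, against 324 to 327 in control arrays. Of 6 leukocyte markers, 3 were dim. PTPRC, the pan-leukocyte gene, was among them at 26.2 ± 1.52 in knockdown and 27.2 ± 0.28 in control arrays (SD, n = 2 each). CD68 was called lower (-0.30), a call lost under the same 3 alternatives as MYB, while CD3E (0.26) and CD14 (0.04) were not called. The sum was 1935 to 1945 in knockdown arrays, against 2214 to 2307 in control arrays. Most of it was CD68, with means of 1492 in knockdown and 1840 in control arrays. Of 6 gastric and intestinal markers, 3 were dim, GKN1 among them, GKN2 was lower, and the sum was 585 to 616 in knockdown arrays, against 711 to 721 in control arrays. Of 8 mesenchymal markers of the cell line, 0 rose and 2 fell by limma, the receptor kinase gene AXL (-0.52) and the protease inhibitor gene TFPI2 (-1.15), with 0 higher and 5 lower at an unadjusted p under 0.05. Over all tested clusters, 15.4% were called lower, and 4738 of 13206 had an unadjusted p under 0.05 in either direction.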

How the data were processed

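The authors deposited linear PLIER intensities, made with Affymetrix Expression Console from core gene and core exon probesets, per the labels. The series text also credits the Exon Array Computational Tool. Any background correction or normalization, like the software versions, is not given in the sources used here. The 8 samples are 4 arrays, each summarised at both levels, grouped by their titles. Features were named through the platform annotation, with symbols updated through RefSeq (GRCh38.p14). Of the clusters, 14432 had 1 symbol, 2408 several and 5171 none, and of the probesets 261273, 9155 and 16901. A listed gene with several clusters is represented by the brightest.

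Values were tested as log2(intensity + 16) with limma 3.58.1 in R 4.3.3 (intensity trend, 2 residual degrees of freedom, two-sided), leaving out features in the lower 40% by mean intensity over all 4 arrays. This scale understates changes of dim genes. The fits were tested on simulated data with known changes. There the gene-level fit recovered 75% of 1.5-fold and 99% of 2-fold changes, and 19 of its 193 calls were false. The exon-level fit recovered 1% of 1.5-fold and 31% of 2-fold changes, and 16 of its 48 calls were false. A probeset that was not called may therefore still differ, and a called cluster or probeset may not differ. Alternatives changed the offset, filter, scaling or variance model, used exon-level medians or a replicate block, or left out an array. Members, lists and rules were chosen with earlier results of these data known. Named were all members, ITGA3, VIM, CDH1, neighbours that were tested and up to 3 tested genes per list with the smallest p. Also named were the 5 tested clusters outside the members nearest TFF1, and the 2 largest tested probesets per member. PGR, GREB1, AGR3, KRT18, CLDN7, ERBB2, PTPRC, GKN1 and the flat or discordant probesets were named after their values were seen. Plots were drawn with matplotlib 3.10.9.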

Additional observations from a re-analysis of the deposited data

How the results depend on the processing

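TFF1 and TFF2 kept their direction and call in all 13 alternatives that tested them, with differences of 2.15 to 3.08 and 1.40 to 2.29. TFF3 kept its direction in 13 of 13 (0.37 to 0.56) and its call in 10, and SPDEF its direction in 14 of 14 (-0.79 to -0.56) and its call in 13. AGR2, MUC1, FOXA1, GATA3 and XBP1 were called in none, and the first 3 changed sign in 2, 2 and 5 alternatives. The median over the members was 0.07 to 0.16 without 1 array and 0.34 on exon-level medians. At the gene level, members called higher numbered 0 with a filter on the lower 60%, which left TFF1, TFF2 and TFF3 untested, and 2 to 3 without 1 array; those called lower numbered 0 to 1 without 1 array. Probesets called higher numbered 0 without the filter, 2 with the filter on the lower 60% and 5 to 6 without 1 array. Probesets called lower numbered 0 without the filter, 0 without the intensity trend, 3 with the filter on the lower 60% and 0 to 1 without 1 array. The cause of these changes was not tested.

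With the replicate block, 11 member probesets were called higher and 6 lower, and no gene-level member call changed. The deviations of same-numbered arrays correlated at 0.29, but with 2 pairs the samples share only a number. Over all clusters, calls higher numbered 793 in the reported fit, 485 without the filter, 1351 after quantile normalization, 1494 after centring, 1332 with the block and 169 to 893 without 1 array, and calls lower 2033 in the reported fit and 663 to 1918 without 1 array. List counts were within 1.5 times of the reported ones in 16, 16 and 15 of 18 after quantile normalization, after centring and without the filter.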
